A study of Mus musculus with 2 samples.

Results

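The nuclear-encoded subunits of the oxidative phosphorylation machinery were chosen by symbol: the *Nduf* genes of complex I, the *Uqcr* genes of complex III, the *Cox5*, *Cox6*, *Cox7* and *Cox8* genes of complex IV and the *Atp5* genes of complex V. The symbols matched 77 of the 32285 genes of the series, and 76 of these had at least 1 UMI (a unique molecular identifier, which marks 1 captured RNA molecule) in the cells kept, with 36 in complex I, 8 in complex III, 15 in complex IV and 17 in complex V. The remaining gene, *Cox8c*, had 0 UMIs. The symbols leave out some known subunits, among them *Cox4i1*, the ubiquitous subunit IV of complex IV. The cells were muscle mononuclear cells of the quadriceps of 14-week-old male C57BL/6J *WT* mice, taken on day 1 or day 3 after acute injury by injection of barium chloride (BaCl2), which kills myofibres. Each day was 1 library of cells pooled from 5 mice, sorted to exclude debris and cell duplexes, and cryopreserved before capture. Both groups therefore carry the same genotype and injury and differ in time, and uninjured muscle was not analysed here.

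With 1 library per day no test between days or cell types is possible, since cells of 1 library are not replicates. Levels are given as CPM, the UMIs of a gene per 1000000 UMIs of all genes, summed over the cells of a group. The 95% intervals are exact Poisson intervals, or exact binomial intervals for a ratio, and cover counting error only. A ratio was called when it reached 1.5-fold in a gene with at least 100 UMIs over both groups. UMIs are counted at the 3' end and were not scaled by gene length, so levels of different genes are compared only as UMI counts.

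Oxidative phosphorylation passes electrons from NADH through complex I, ubiquinone, complex III, cytochrome c and complex IV to oxygen, and the proton gradient built on the way drives the ATP synthase, complex V. Most subunits are encoded in the nucleus and imported, while the core of complexes I, III and IV and a part of the ATP synthase is encoded by mitochondrial DNA. In muscle repair, neutrophils and inflammatory macrophages are known for a high use of glycolysis, whereas myogenic cells build up mitochondria as they differentiate.

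The libraries held 74852240 UMIs on day 1 and 102565783 on day 3. After removal of barcodes with under 1000 UMIs, under 200 genes or over 7.5% of UMIs from mitochondria-encoded genes, 6735 and 4627 cells were kept, with medians of 9389 and 14548 UMIs. The mitochondrial limit alone removed 7.02% of the called barcodes on day 1 and 30.3% on day 3. The lists of possible barcodes differed between the libraries, with 737280 entries on day 1 and 6794880 on day 3, so a difference in capture chemistry cannot be told apart from the day. No barcode of a kept cell was shared by the libraries. Clustering gave 15 clusters, of which 13 were named from cell type markers and 2 were called by their leading gene. Monocyte/macrophage-like cells numbered 3343 on day 1 and 2420 on day 3, dendritic cell-like cells 347 and 440, neutrophil-like cells 2081 and 249, and fibroblast/FAP-like cells (fibro/adipogenic progenitors) 631 and 809. Satellite cell/myoblast-like cells numbered 5 and 201, so their day 1 level rests on 5 cells. An unnamed cluster led by *Ifitm6*, *Plac8*, *Mmp8* and *Ly6c2* had 219 and 383 cells, and an unnamed mixture led by *Hbb-bs* with endothelial and mast cell genes had 109 and 125. The markers in this mixture differed between the days. Its erythroid markers summed to 1953 CPM on day 1 and 3.88 CPM on day 3, and its neutrophil markers to 2403 and 115 CPM. The part of this in the day differences of the mixture was not tested.

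The promoters of some of the genes on which the results below turn are shown first. They are RefSeq windows from 250 bases before to 50 after the start of the gene on GRCm38.p6. Each is read 5′ to 3′ on the strand of the gene. *Uqcr11* and *Atp5g2* were the members of complexes III and V with the highest day 3 over day 1 ratio in monocyte/macrophage-like cells. *Ndufa4* was the highest complex I member by UMI count, and *AA467197* is its paralog outside the symbol rule. Capitals mark matches on either strand to CCGGAAG (an ETS/GABP site), GCGCATG (an NRF1 site core), AAGATGG (a YY1 site) and ACGTG (the core of hypoxia response elements and of some E-boxes). *Uqcr11* lies at chr10:80406772-80407071 on the minus strand, *Atp5g2* at chr15:102670998-102671297 on the minus strand, *Ndufa4* at chr6:11907401-11907700 on the minus strand and *AA467197* at chr2:122637637-122637936 on the plus strand.
Uqcr11: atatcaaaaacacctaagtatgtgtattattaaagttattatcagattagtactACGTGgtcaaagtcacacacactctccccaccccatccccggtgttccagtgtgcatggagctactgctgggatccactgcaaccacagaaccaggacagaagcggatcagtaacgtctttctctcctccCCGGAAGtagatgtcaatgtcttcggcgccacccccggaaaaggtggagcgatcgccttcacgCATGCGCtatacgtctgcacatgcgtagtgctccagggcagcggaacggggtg
Atp5g2: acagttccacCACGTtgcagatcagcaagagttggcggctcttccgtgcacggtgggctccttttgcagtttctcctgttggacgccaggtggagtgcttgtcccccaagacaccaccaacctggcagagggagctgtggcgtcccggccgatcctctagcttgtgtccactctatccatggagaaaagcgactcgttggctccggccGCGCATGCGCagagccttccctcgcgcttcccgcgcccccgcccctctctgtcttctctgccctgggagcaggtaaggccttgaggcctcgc
Ndufa4: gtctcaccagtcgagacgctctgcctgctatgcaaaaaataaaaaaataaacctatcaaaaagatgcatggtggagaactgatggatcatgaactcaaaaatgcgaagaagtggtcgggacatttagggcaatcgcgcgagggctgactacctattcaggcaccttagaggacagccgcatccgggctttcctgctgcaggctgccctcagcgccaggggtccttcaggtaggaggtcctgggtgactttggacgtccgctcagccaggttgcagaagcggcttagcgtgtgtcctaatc
AA467197: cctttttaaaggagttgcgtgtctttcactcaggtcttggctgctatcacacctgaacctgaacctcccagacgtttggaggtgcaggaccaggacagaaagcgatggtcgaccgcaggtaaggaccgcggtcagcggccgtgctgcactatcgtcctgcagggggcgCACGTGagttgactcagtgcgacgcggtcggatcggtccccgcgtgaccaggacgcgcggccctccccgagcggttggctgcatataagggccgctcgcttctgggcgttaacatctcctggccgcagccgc

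*Uqcr11* held 1 ETS match, 1 NRF1 match and 1 ACGTG match in this window. In *Atp5g2* the NRF1 letters overlapped their own reverse complement and so matched on both strands, and 1 ACGTG match stood further upstream. None of these letters occurred in the *Ndufa4* window, and the *AA467197* window held CACGTG, a palindrome that matched ACGTG on both strands. The windows of *Ndufa5* and *Cox7a2l*, which are not printed, held no ETS, NRF1, YY1 or ACGTG letters. Among complex I and IV members with a window, these genes had the highest day 3 over day 1 ratio in monocyte/macrophage-like cells. Whether the letters go with the day ratios was not tested. RefSeq windows were found for 64 of the 77 members. NRF1 and GABP are regulators known for control of respiratory chain genes. The ETS letters occurred in 15 of the 64 (23.4%), against 9.93% of all 27025 genes with a window. NRF1 letters occurred in 12 (18.8%), against 4.41%, and YY1 letters in 10 (15.6%), against 7.28%. ACGTG occurred in 15 (23.4%), against 21.8%, and CCAAT, which is not capitalised above, in 28 (43.8%), against 41.1%. At least 1 of the ETS, NRF1 and YY1 strings was present in 30 of the 64 windows (46.9%), against 19.5% of all genes. These are counts of letters, not of bound sites. Members without a window included *Ndufs1*, *Ndufa2*, *Ndufb9*, *Uqcrc2*, *Uqcrq*, *Uqcrb*, *Cox6a2*, *Cox6c*, *Cox8c*, *Atp5f1*, *Atp5a1* and *Atp5mpl*.

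Neutrophil-like cells on day 1 stood lowest, at 6994 CPM for the summed members (95% interval 6922 to 7066), and satellite cell/myoblast-like cells on day 3 stood highest, at 31624 CPM (31508 to 31741). Monocyte/macrophage-like cells had 17714 CPM on day 1 (17673 to 17756) and 21407 CPM on day 3 (21362 to 21451). Fibroblast/FAP-like cells had 20091 CPM on day 1 and 19054 CPM on day 3. The days thus stood in opposite order in these cell types, each by more than the counting error. Dendritic cell-like cells had 18542 and 19881 CPM, the *Ifitm6*-led cluster 19758 and 19300 CPM, the *Hbb-bs*-led mixture 17588 and 21570 CPM, and neutrophil-like cells on day 3 14171 CPM (13848 to 14500). Barcodes of 100 UMIs or fewer, which carry free RNA, held the members at 19770 CPM on day 1 and 17730 CPM on day 3, within the range of the cell types.

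**Figure D1:**
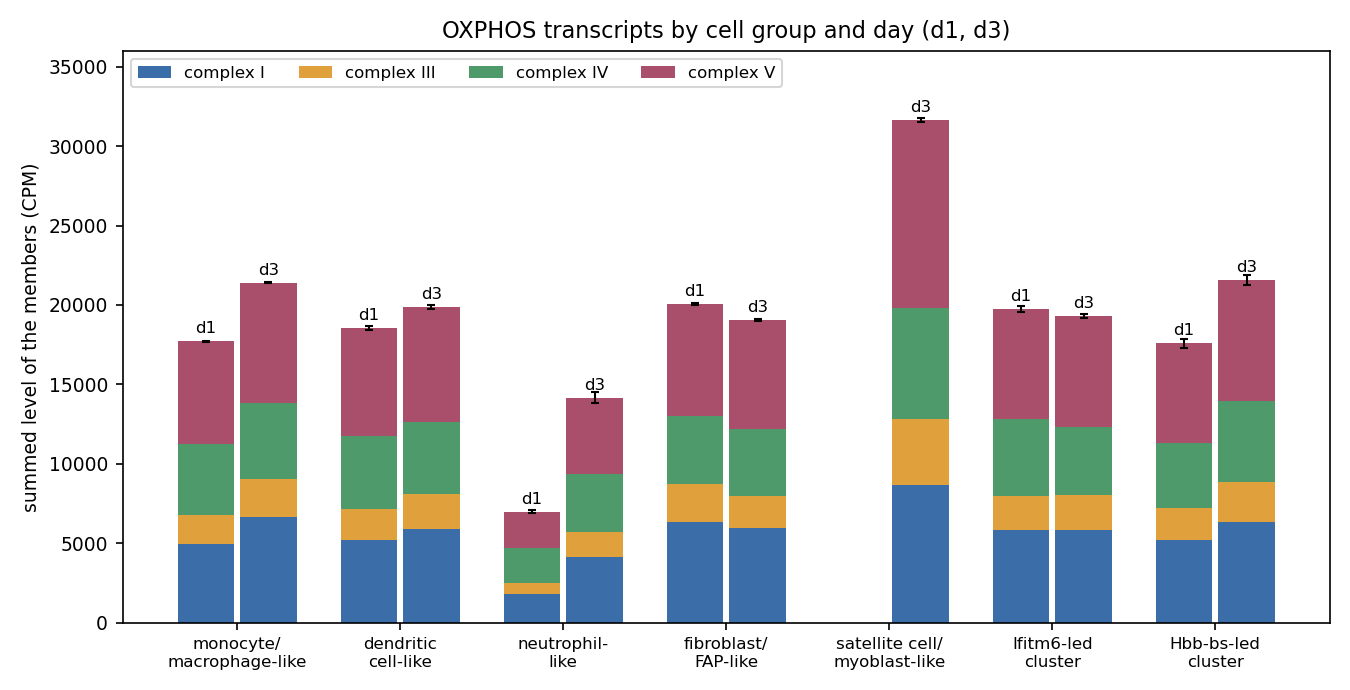
Summed level of the nuclear-encoded oxidative phosphorylation genes in CPM (vertical axis, from 0) by cell group and day (d1 and d3), stacked by complex, with 95% Poisson intervals on the sum. The 5 satellite cell/myoblast-like cells of day 1 are not drawn. The neutrophil-like bar of day 1 is the shortest at 6994 CPM and the satellite cell/myoblast-like bar of day 3 the longest at 31624 CPM.

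In single cells thinned to 1000 UMIs each, the median share of UMIs from the members was 1.7% on day 1 and 2.1% on day 3 in monocyte/macrophage-like cells, and 2.0% and 1.7% in fibroblast/FAP-like cells. Neutrophil-like cells had medians of 0.6% and 1.2%, and satellite cell/myoblast-like cells 3.1% on day 3. The day 1 neutrophil-like cells were thus lowest and the day 3 satellite cell/myoblast-like cells highest also when every cell counted equally and at the same depth. Medians of thinned cells move in steps of 1 UMI in 1000, so groups with close levels could not be ordered by them. On day 3, dendritic cell-like cells had a median of 1.8% and the *Ifitm6*-led cluster 1.9%. On day 1 the *Hbb-bs*-led mixture had 1.8% and dendritic cell-like cells 1.7%. Without thinning these medians were 1.90% and 1.91% on day 3, and 1.71% and 1.79% on day 1. Only the day 1 pair without thinning stood in the order of the summed CPM.

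**Figure D2:**
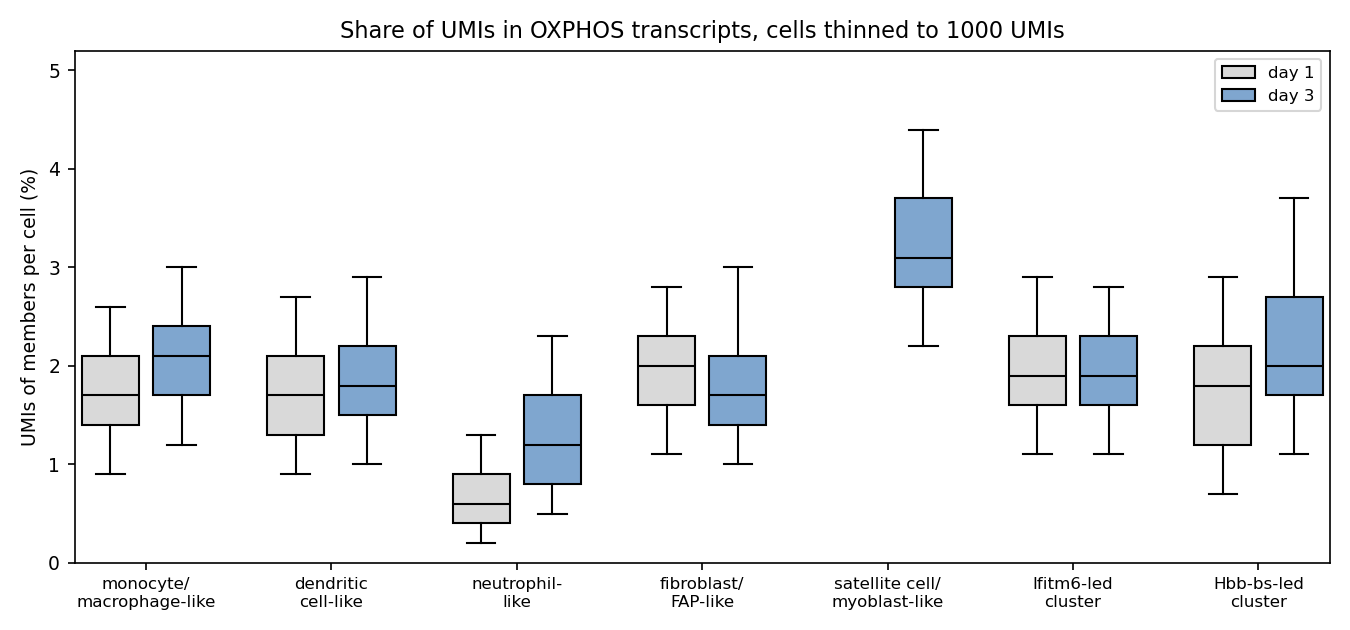
Percent of UMIs from the nuclear-encoded oxidative phosphorylation genes in single cells thinned to 1000 UMIs, by cell group and day. Boxes span the quartiles with the median, and whiskers the 5th to 95th percentiles. The groups of fewer than 50 cells are not drawn. The day 1 neutrophil-like cells have a median of 0.6% and the day 3 satellite cell/myoblast-like cells one of 3.1%.

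In monocyte/macrophage-like cells the summed members were 1.21-fold higher on day 3 than on day 1, with complex I in front. The complex I genes went from 4960 to 6677 CPM, complex III genes from 1842 to 2348 CPM, complex V genes from 6443 to 7570 CPM and complex IV genes from 4469 to 4811 CPM. Of 74 members assessed, 20 were at least 1.5-fold higher on day 3 and 0 were at least 1.5-fold lower. Of all 10626 genes assessed in the same cells, 43.3% were higher and 9.67% lower by that measure, so the share of members higher (20 of 74) lay below that of all genes. The median log2 ratio of the members was 0.36, and that of all genes assessed was 0.44. Relative to the median of all genes, the summed log2 ratio of 0.27 became -0.17, so the direction of the module depends on whether the scale is the UMI total or the typical gene. On the latter scale 3 members were higher, and 13 were higher with cells called at 10% of the 99th percentile of UMIs. By complex, 13 of 36 complex I genes, 1 of 8 complex III genes, 4 of 13 complex IV genes and 2 of 17 complex V genes were higher, with median log2 ratios of 0.46, 0.36, 0.17 and 0.26. The complex I median was close to that of all genes, and the others were below it.

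Within complex I, *Ndufa4*, *Ndufa2* and *Ndufb8* had the highest levels summed over both days in monocyte/macrophage-like cells. *Ndufa4*, first assigned to complex I and now known to sit in complex IV, had 403 CPM on day 1 and 503 CPM on day 3. *Ndufa2*, an accessory subunit of the matrix arm, had 343 and 375 CPM, and *Ndufb8*, of the membrane arm, 246 and 328 CPM, close to *Ndufa13* with 237 and 331 CPM. The highest ratio belonged to *Ndufa5*, an accessory subunit of the matrix arm, with 58.3 CPM on day 1 and 137 CPM on day 3, a log2 ratio of 1.23 (1.16 to 1.30). *Ndufv3*, an accessory subunit next to the NADH-binding core, followed with 112 and 230 CPM. The lowest ratio was that of *Ndufa1*, a small membrane arm subunit, with 190 CPM on day 1 and 141 CPM on day 3, a log2 ratio of -0.43 (-0.48 to -0.38). *Ndufa1* was also the lowest of the assessed members in dendritic cell-like cells, at 179 and 122 CPM, and in the *Ifitm6*-led cluster, at 230 and 137 CPM. Fibroblast/FAP-like cells had it at 106 CPM on day 1 and 107 CPM on day 3. Subunits of 1 complex thus stood on either side of the summed ratio.

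In complex III, *Uqcrq*, *Uqcrb* and *Uqcrh*, the last being the hinge protein beside cytochrome c1, were highest by the same sum, with 348, 358 and 377 CPM on day 1 and 449, 434 and 382 CPM on day 3. *Uqcr11*, the smallest subunit, whose promoter with its ETS and NRF1 letters is printed above, had 210 CPM on day 1 and 385 CPM on day 3, a log2 ratio of 0.87 (0.83 to 0.91). *Uqcrfs1*, the Rieske iron-sulfur protein that accepts electrons from ubiquinol, had 126 and 117 CPM. The complex therefore held both a called ratio and one just under 0.

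In complex IV, *Cox8a*, *Cox6b1* and *Cox6c* were highest by the sum of both days, with 753, 538 and 533 CPM on day 1 and 793, 577 and 570 CPM on day 3. On single days *Cox7c*, with 570 and 512 CPM, and *Cox5a*, with 484 and 604 CPM, each stood above *Cox6b1* and *Cox6c* once. *Cox6a1*, the broadly expressed isoform of subunit VIa, had the lowest ratio, with 302 CPM on day 1 and 261 CPM on day 3. *Cox7a2l*, a factor that joins complexes III and IV into supercomplexes, had 68.8 and 135 CPM, chosen here after its values were seen. In complex V the highest sums were those of *Atp5e* (the epsilon subunit), *Atp5l* (subunit g) and *Atp5h* (subunit d), with 738, 618 and 471 CPM on day 1 and 796, 630 and 538 CPM on day 3. *Atp5g2* had the highest ratio, with 356 CPM on day 1 and 579 CPM on day 3, and *Atp5b*, the catalytic beta subunit, the lowest, with 506 and 456 CPM. *Atp5g1*, *Atp5g2* and *Atp5g3* encode the same mature c subunit of the rotor ring. Their sum in monocyte/macrophage-like cells was 899 CPM on day 1 (890 to 909) and 1306 CPM on day 3 (1295 to 1317).

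Monocyte/macrophage-like cells of the 2 days fell into different clusters. On day 1 the large clusters were led by *Serpinb2* (1462 cells), *Gm9733* (914 cells) and *Cd163* (903 cells), and on day 3 by *Gpnmb* (1208 cells), *Maf* (943 cells) and *Ifit2* (221 cells). The *Serpinb2*-led cluster, whose leading genes include *Il1a*, *Il1b* and *Cxcl3*, had the lowest summed members at 16460 CPM, and the *Gpnmb*-led cluster the highest at 22024 CPM. The day 1 range ran up to 19220 CPM in the *Gm9733*-led cluster, above the 18666 CPM of the *Ifit2*-led cluster of day 3, which is led by interferon-response genes. The ranges of the days therefore overlapped, and what clusters a day holds and what the day itself changes cannot be told apart here.

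**Figure D3:**
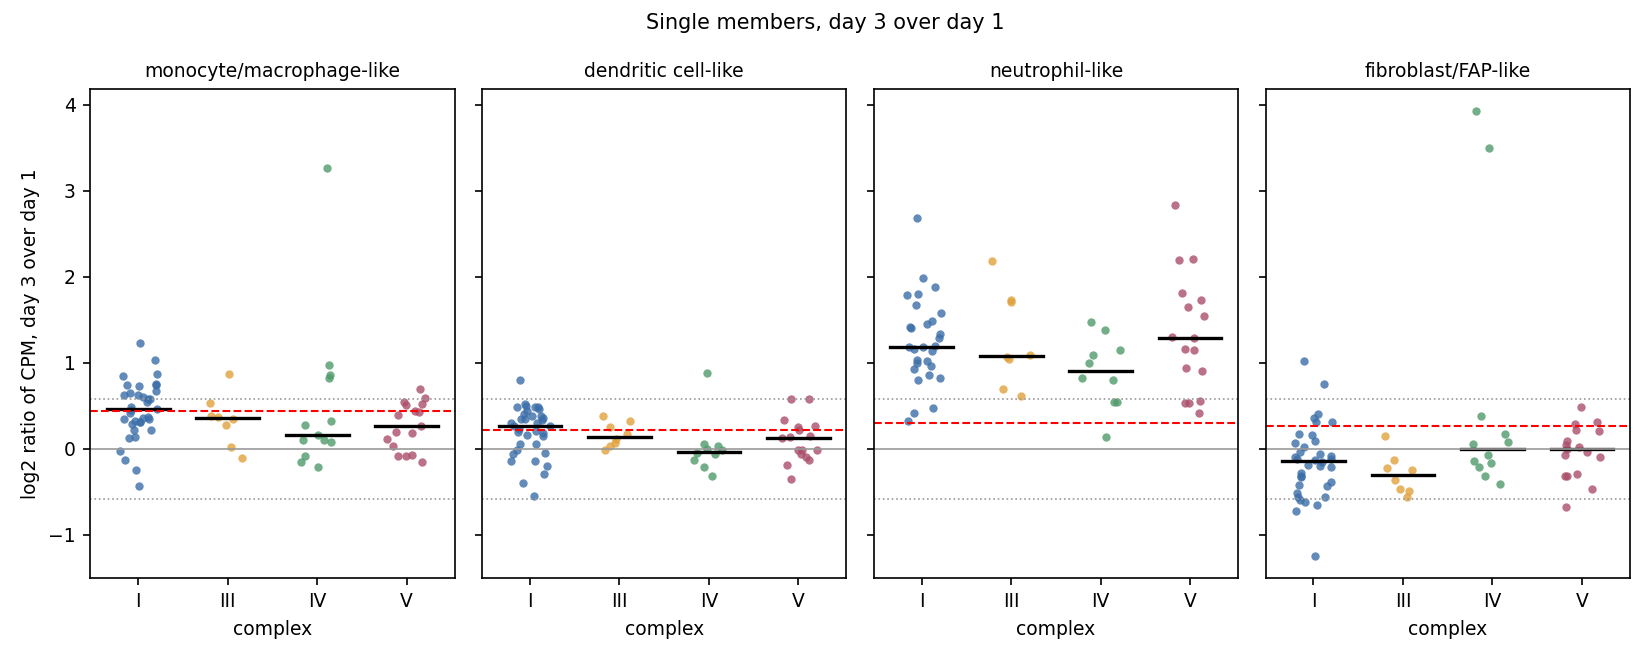
Log2 ratio of day 3 over day 1 (vertical axis) for each member assessed, by complex, in monocyte/macrophage-like, dendritic cell-like, neutrophil-like and fibroblast/FAP-like cells. Black bars are the medians of the complexes, the dashed red line the median of all genes assessed, and dotted lines the 1.5-fold bounds. The neutrophil-like points lie above 0 throughout, with 54 of 64 past the bound, against 20 of 74 in monocyte/macrophage-like cells and 4 of 73 in fibroblast/FAP-like cells.

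Other mitochondrial and metabolic lists in the same monocyte/macrophage-like cells moved to different degrees. Of all genes assessed in these cells, 43.3% were at least 1.5-fold higher and 9.67% lower. The 13 mitochondria-encoded subunits went from 26073 to 40960 CPM, and 9 of 13 were at least 1.5-fold higher and 0 lower. The cut on mitochondrial UMIs acts on these genes directly and removed more barcodes on day 3. Mitochondrial ribosome genes had 36 of 78 higher and 2 lower, a share higher close to that of all genes. Assembly factors of the complexes had 21 of 39 higher and 2 lower. The tricarboxylic acid cycle list had 1 of 13 higher and 0 lower, and the 4 subunits of complex II, the succinate dehydrogenase, had 0 in either direction. Glycolysis genes went the other way, from 10767 to 6557 CPM, with 9 of 15 at least 1.5-fold lower and 0 higher. *Cycs*, cytochrome c, had 272 CPM on day 1 and 198 CPM on day 3. Of 9 regulators of mitochondrial genes assessed, 3 were higher and 2 lower. *Hif1a*, which encodes the oxygen-sensitive subunit of hypoxia-inducible factor, had 510 and 157 CPM. Cytosolic ribosomal protein genes had 0 of 77 higher and 3 lower. The members therefore stood between the glycolysis list and the mitochondria-encoded list.

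Dendritic cell-like cells moved little. Their name rests on a narrow lead, with a marker score of 2.83 against 2.54 for monocytes/macrophages and 4 of 8 dendritic cell markers raised. Of 71 members assessed, 2 were at least 1.5-fold higher on day 3, *Cox7a2l* with 99 and 182 CPM and *Ndufv3* with 103 and 180 CPM, and 0 were lower. Among all genes assessed there, 26.3% were higher. In the *Ifitm6*-led cluster 2 of 71 were lower, *Ndufa1* and *Ndufb2*, against 6.84% of all genes lower. *Ndufb2*, a membrane arm subunit, had 169 CPM on day 1 and 111 CPM on day 3 in this cluster.

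Fibroblast/FAP-like cells had a summed log2 ratio of -0.08 (-0.08 to -0.07), with few members past the bound. Of 73 assessed, 4 were at least 1.5-fold higher on day 3 and 6 lower, while 35.6% of all genes assessed were higher and 15.5% lower. The 4 higher were *Ndufv3*, *Ndufa13*, *Cox7a1* and *Cox6b2*, and the 6 lower were *Ndufa12*, *Ndufb6*, *Ndufv2*, *Ndufb4*, *Ndufa8* and *Atp5b*. Of those lower, 5 are complex I genes. *Ndufa12*, an accessory subunit of the matrix arm, had 234 CPM on day 1 and 98.9 CPM on day 3, a log2 ratio of -1.24 (-1.32 to -1.17). In monocyte/macrophage-like cells the same gene had 106 CPM on day 1 and 170 CPM on day 3. On day 1 it was thus higher in the fibroblast/FAP-like cells, and on day 3 in the monocyte/macrophage-like cells.

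*Ndufv3* had 99.4 CPM on day 1 and 202 CPM on day 3 in fibroblast/FAP-like cells, the highest complex I ratio there. It was the 1 member with a ratio of 1.5-fold or more in each of the monocyte/macrophage-like, dendritic cell-like, neutrophil-like and fibroblast/FAP-like cells. In complex III *Uqcrh* had 387 and 428 CPM and *Uqcrfs1* 134 and 90.4 CPM. In complex IV *Cox5a*, a subunit on the matrix side, was lowest, with 520 and 393 CPM. In complex V *Atp5mpl*, a small proteolipid of the membrane part, had 281 and 393 CPM, and *Atp5b* 695 and 436 CPM, a log2 ratio of -0.67 (-0.71 to -0.64). Each complex therefore held a member above and a member below its day 1 level by more than the counting error.

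Against monocyte/macrophage-like cells of the same library, fibroblast/FAP-like cells had 20 of 72 members at least 1.5-fold higher on day 1 and 2 lower, *Cox7a1* and *Ndufa1*, where 46.9% of all genes were higher and 23.0% lower. On day 3 they had 7 of 74 members at least 1.5-fold lower, where 20.2% of all genes were lower. *Ndufa5* had 188 CPM in fibroblast/FAP-like and 58.3 CPM in monocyte/macrophage-like cells on day 1, and 151 and 137 CPM on day 3. The gap between the cell types was thus smaller on day 3 than on day 1 for this gene. The day 1 fibroblast/FAP-like cells came almost all from a *Cxcl5*-led cluster (624 cells) and the day 3 cells from a *Sfrp2*-led cluster (804 cells), with summed members of 20101 and 19050 CPM. The summed fibroblast/FAP markers had 7326 CPM on day 1 and 22463 CPM on day 3, and the part of this in the levels above was not tested. Beside the members, mitochondrial ribosome genes had 0 of 78 higher and 40 lower on day 3 in these cells, cytosolic ribosome genes 0 higher and 29 lower of 77, and *Cycs* 328 and 157 CPM. The mitochondria-encoded subunits had 8 of 13 higher and 0 lower. Of all genes assessed between the days in these cells, 35.6% were higher and 15.5% lower.

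Neutrophil-like cells of day 1 had the members at 0.39 times the level of monocyte/macrophage-like cells in the same library, a summed log2 ratio of -1.34 (-1.36 to -1.33). Of 72 members assessed, 67 were at least 1.5-fold lower and 0 higher, against 54.6% of all genes lower. The median log2 ratio was -1.70 for the members and -0.77 for all genes assessed. Complex I genes had 1797 CPM in neutrophil-like and 4960 CPM in monocyte/macrophage-like cells, complex III genes 698 and 1842 CPM, complex V genes 2308 and 6443 CPM, and complex IV genes 2191 and 4469 CPM. With 20 PCs, log-normalization, cells called at 10% of the 99th percentile of UMIs, or centring on the median of all genes, the summed log2 ratio was -0.68, -0.73, -0.063 and -0.57, with 47, 55, 2 and 45 members lower. Under the first 3 of these settings, cells of the *Ifitm6*-led cluster or of monocyte/macrophage-like clusters also took the neutrophil name. Complex IV had the smallest gap, and without *Cox8a* its genes had 1396 and 3717 CPM, a log2 ratio of -1.41.

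*Cox8a*, the broadly expressed isoform of subunit VIII, had 794 CPM (770 to 819) in neutrophil-like and 753 CPM in monocyte/macrophage-like cells on day 1. It was the 1 member with a ratio above 0. *Cox7a2l* was next, with 65.6 and 68.8 CPM, whose log2 ratio of -0.07 had an interval of -0.23 to 0.10. At the other end stood complex I genes, here chosen after their values were seen. *Ndufa11*, a membrane arm subunit, had 5.79 CPM in neutrophil-like and 128 CPM in monocyte/macrophage-like cells. *Ndufa9*, a matrix arm subunit near the ubiquinone site, had 3.09 and 47.1 CPM, and *Ndufa5* 4.25 and 58.3 CPM. The c subunit genes of complex V together had 123 CPM (113 to 133) against 899 CPM. The members thus ranged from level with monocyte/macrophage-like cells to 21.8-fold lower (*Ndufa11*), and subunits of 1 complex were lower to different degrees.

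**Figure D4:**
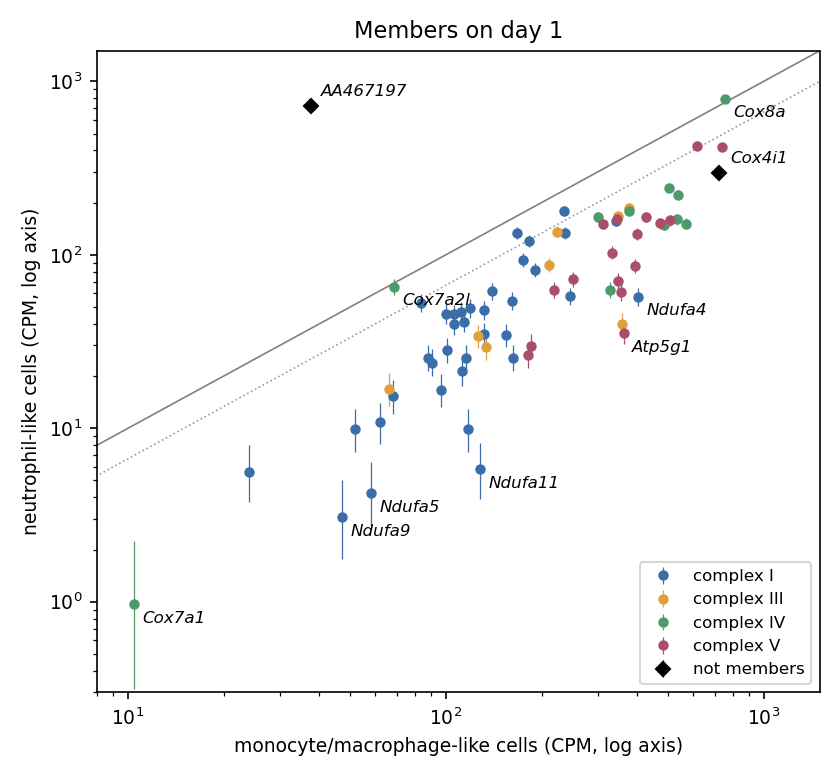
Level of each member in neutrophil-like cells (vertical axis) against monocyte/macrophage-like cells (horizontal axis) of the day 1 library, both in CPM on log axes, coloured by complex, with 95% Poisson intervals on the vertical axis. The solid line marks equal levels, the dotted line a level 1.5-fold lower, and black diamonds mark the genes *AA467197* and *Cox4i1*, which are no members. *Cox8a* (794 and 753 CPM) lies above the line and *Ndufa11* (5.79 and 128 CPM) far below it.

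Other lists were lower in the same comparison, in which 54.6% of all genes were lower. The mitochondria-encoded subunits had 13 of 13 at least 1.5-fold lower, the mitochondrial ribosome 70 of 78, the cytosolic ribosome 75 of 77, the tricarboxylic acid cycle 11 of 13 and glycolysis 11 of 15. The low level was therefore shared by lists outside the respiratory chain. Neutrophil-like cells had a median of 2155 UMIs and monocyte/macrophage-like cells 11277 UMIs on day 1. Among cells of 1000 to 5000 UMIs, the members had 6787 CPM in 2002 neutrophil-like cells and 14022 CPM in 242 monocyte/macrophage-like cells, a log2 ratio of -1.05. The G0s2-led, Retnlg-led and Acod1-led neutrophil-like clusters had 7597, 7603 and 6481 CPM on day 1, so each was below every monocyte/macrophage-like cluster.

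On day 3 neutrophil-like cells were few (249 cells) and had 2.03-fold more of the members than on day 1, 14171 against 6994 CPM. Of 64 members assessed, 54 were at least 1.5-fold higher and 0 lower, against 36.6% of all genes higher, and the median log2 ratio was 1.15 for the members and 0.31 for all genes. *Cox8a*, high on day 1 already, had 794 and 870 CPM, the lowest ratio. The c subunit genes had 123 CPM on day 1 and 653 CPM on day 3, and *Ndufv3* 21.4 and 138 CPM. Against monocyte/macrophage-like cells of day 3, 45 of 74 members were still at least 1.5-fold lower and 0 higher, where 40.4% of all genes were lower. The cytosolic ribosome list had 72 of 77 higher on day 3 than on day 1 in these cells, and the mitochondria-encoded subunits 11 of 11.

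Markers of other cells moved with this day difference. The 8 macrophage markers summed to 290 CPM in neutrophil-like cells on day 1 and 1457 CPM on day 3, with none of the 8 at 0 on either day. The 8 fibroblast/FAP markers summed to 125 and 450 CPM, and the 8 neutrophil markers to 81692 and 37577 CPM. The share of UMIs from free RNA, estimated from collagen and decorin genes, was 1.99% on day 1 and 6.37% on day 3, and the members after its subtraction had 6733 and 13872 CPM. In cells with 0 UMIs of the macrophage markers (1234 and 116 cells) the members had 6714 and 12841 CPM, a log2 ratio of 0.94 (0.87 to 1.00), with 39 of 51 higher and 0 lower, against 28.2% of all genes higher in the same cells. The median log2 ratio was 1.06 for the members and 0.16 for all genes. This subset kept 1234 of 2081 cells of day 1 and 116 of 249 cells of day 3. A cell of low depth is more likely to hold 0 UMIs of the markers, and the part of depth was not tested.

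Satellite cell/myoblast-like cells of day 3, which expressed *Myod1*, *Myog* and *Ttn*, had 1.48-fold more of the members than monocyte/macrophage-like cells of the same library. Of 74 members assessed, 35 were at least 1.5-fold higher and 4 lower, against 39.2% of all genes higher and 31.4% lower. Complex III genes had 4170 and 2348 CPM, with 7 of 8 higher, and complex V genes 11790 and 7570 CPM, with 11 of 17 higher. Complex I genes had 12 of 36 higher and 2 lower, and complex IV genes 5 of 13 higher and 2 lower. *Atp5b* had 1151 and 456 CPM, *Uqcrfs1* 304 and 117 CPM, and *Ndufs1*, the large iron-sulfur subunit of complex I chosen here after its values were seen, 94.7 and 35.2 CPM. The iron-sulfur subunit *Ndufs7* was also past the bound, with 277 and 151 CPM. Others were below it, such as *Ndufs8* with 168 and 138 CPM and *Ndufv2* with 175 and 123 CPM. *Cox8a* reached 1406 CPM, the highest level of any member in any group. The 4 lower were *Ndufv3* with 75 and 230 CPM, *Ndufa1* with 65.2 and 141 CPM, *Cox7a1* with 7.88 and 18.5 CPM, and *Cox6a2* with 0.11 and 6.42 CPM. The share of members higher was thus larger in complexes III and V than in complexes I and IV.

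The tricarboxylic acid cycle list had 12 of 13 higher in the same comparison, *Cycs* 774 and 198 CPM, and the mitochondrial and cytosolic ribosome lists 54 of 78 and 64 of 77 higher. Of all genes, 39.2% were higher there. Myoblast-like cells had a median of 44223 UMIs against 15382.5 UMIs in monocyte/macrophage-like cells, and the part of depth in these ratios was not tested.

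The isoforms of complex IV known from heart and skeletal muscle, testis or other tissues were low in all groups, and their ubiquitous partners were high. *Cox6a2*, the striated muscle partner of *Cox6a1*, had 132 UMIs on day 1 and 342 on day 3 in all kept cells. *Cox7a1*, the muscle partner of *Cox7a2*, had 461 and 1127 UMIs. *Cox8b* had 6 and 5 UMIs, *Cox6b2* 133 and 381, and *Cox7b2* 0 and 1. *Cox8c* had 0 UMIs of 71141227 and 84177707, which allows up to 0.0422 and 0.0356 CPM. No isoform reached the level of its partner in any group.

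By CPM, the muscle isoforms were not highest in the myogenic cells. *Cox7a1* had 10.5 CPM on day 1 and 18.5 CPM on day 3 in monocyte/macrophage-like cells, 20.5 CPM (18.8 to 22.3) in the *Gpnmb*-led cluster, and 7.88 CPM in satellite cell/myoblast-like cells. Low-count barcodes held it at 10.4 and 11.1 CPM, and fibroblast/FAP-like cells at 0.80 and 9.33 CPM. It had a UMI in 10.8% and 24.3% of monocyte/macrophage-like cells, against 0.24% and 0.80% of neutrophil-like cells, whose median depth was 2155 and 1606 UMIs against 11277 and 15382.5. In cells thinned to 1000 UMIs the shares were 0.93% and 2.15% against 0.048% and 0%. Of the 201 satellite cell/myoblast-like cells of day 3, with a median of 44223 UMIs, 27.4% had a *Cox7a1* UMI. After thinning their share was 1.49% (0.31 to 4.30), an interval that holds the 2.15% of monocyte/macrophage-like cells. *Cox6a2* had 0.66 and 6.42 CPM in monocyte/macrophage-like cells, 8.99 CPM in the *Gpnmb*-led cluster and 0.11 CPM (1 UMI) in satellite cell/myoblast-like cells of day 3. The partners *Cox7a2* and *Cox6a1* had 457 and 261 CPM in monocyte/macrophage-like cells of day 3, so both isoforms were a minor part. The highest *Cox6a2* level of day 3, 33.6 CPM, was in the *Hbb-bs*-led mixture, where it came from 6 of 125 cells.

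Among the genes that the symbol rule misses, *Cox4i1*, *Cox4i2*, *Ndufab1*, *Dmac2l*, *Ndufa4l2* and *AA467197* were taken from a list of their own. That list is not complete. *Cyc1*, which encodes cytochrome c1 of complex III, is in neither set and was not examined. *Ndufab1*, the mitochondrial acyl carrier protein and a subunit of complex I, had 109 and 160 CPM in monocyte/macrophage-like cells and 266 and 139 CPM in fibroblast/FAP-like cells. *Dmac2l*, a factor of the ATP synthase, had 1.90 and 3.66 CPM in monocyte/macrophage-like cells. *AA467197* (also *Nmes1*), a paralog of *Ndufa4* known from inflamed and mucosal cells, had 720 CPM in neutrophil-like cells on day 1 (697 to 744), where *Ndufa4* had 57.3 CPM, a ratio of 12.5 to 1 (11.2 to 14.2). On day 3 the levels were 314 and 143 CPM, a ratio of 2.18 (1.65 to 2.92). In monocyte/macrophage-like cells the order was the reverse, with *AA467197* at 37.5 and 12.2 CPM and *Ndufa4* at 403 and 503 CPM. The paralog was thus the larger count in neutrophil-like cells on both days.

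*AA467197* had a UMI in 57.6% of neutrophil-like cells on day 1 and *Ndufa4* in 11.1%. In cells thinned to 1000 UMIs the shares were 36.8% and 4.90%, against 2.24% and 33.0% in monocyte/macrophage-like cells. Low-count barcodes held *AA467197* at 117 CPM on day 1 and 11.7 CPM on day 3, and the part of free RNA in the levels of the cell groups was not tested. Dendritic cell-like cells had it at 298 CPM on day 1 and 56.8 CPM on day 3, and the *Hbb-bs*-led mixture at 708 and 64.6 CPM. The neutrophil markers of the mixture summed to 2403 and 115 CPM, and their part in its *AA467197* levels was not tested. The level of *AA467197* was lower on day 3 than on day 1 in each group described here.

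*Ndufa4l2*, another *Ndufa4* paralog and a known target of hypoxia-inducible factor, was found mainly in fibroblast/FAP-like cells of day 3 and in the *Hbb-bs*-led mixture. It had 4.23 CPM (79 UMIs) on day 1 and 153 CPM (3704 UMIs) on day 3 in fibroblast/FAP-like cells, where 6.66% and 55.6% of cells had a UMI. The *Hbb-bs*-led mixture had 37.8 CPM (32 UMIs) and 127 CPM (98 UMIs). These came from 8 of 109 and 9 of 125 cells, and 1 cell of day 3 held 49 of the UMIs. Monocyte/macrophage-like cells had it at 0.23 and 0.85 CPM, and low-count barcodes at 2.50 and 45.6 CPM. *Ndufa4* in fibroblast/FAP-like cells had 532 and 556 CPM. *Cox4i2*, the hypoxia-linked isoform of subunit IV, had 0.16 CPM (3 UMIs) and 12.4 CPM (300 UMIs) in fibroblast/FAP-like cells, and 13 CPM (11 UMIs) and 25.8 CPM (20 UMIs) in the *Hbb-bs*-led mixture. In the mixture the *Cox4i2* UMIs came from 3 of 109 and 5 of 125 cells. The ubiquitous partner *Cox4i1* had 576 and 755 CPM in fibroblast/FAP-like cells, 725 and 1026 CPM in monocyte/macrophage-like cells, and 295 and 578 CPM in neutrophil-like cells. Day 3 fibroblast/FAP-like cells therefore held both minor isoforms at levels below their partners, and the mixture held them in few of its cells.

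**Figure D5:**
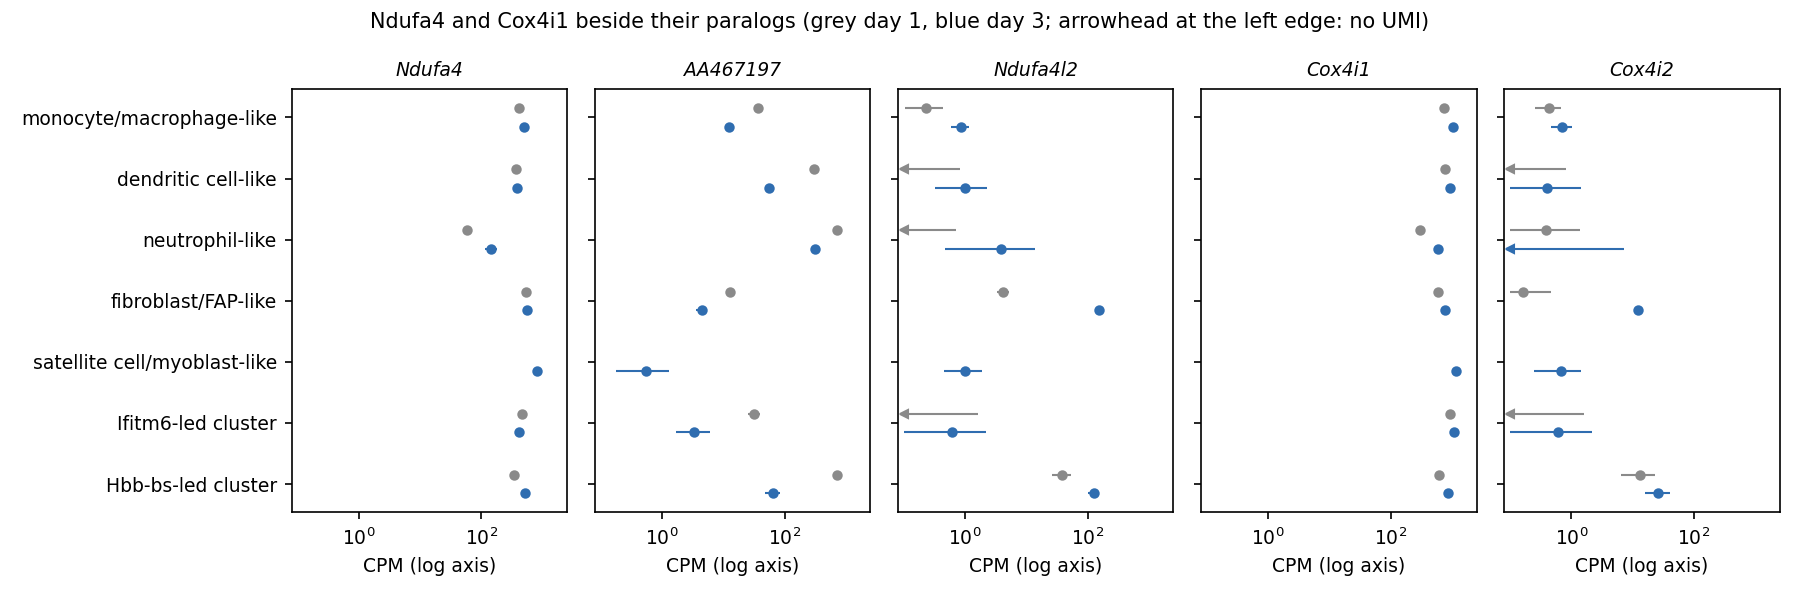
Level in CPM (horizontal log axis) of *Ndufa4* and its paralogs *AA467197* and *Ndufa4l2*, and of *Cox4i1* and its paralog *Cox4i2*, by cell group on day 1 (grey) and day 3 (blue). Lines are 95% Poisson intervals, cut at the left edge, and an arrowhead there marks 0 UMIs. *AA467197* exceeds *Ndufa4* in neutrophil-like cells (720 against 57.3 CPM on day 1), and *Ndufa4l2* reaches 153 CPM in fibroblast/FAP-like cells of day 3.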

How the data were processed

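Single-cell RNA-seq was made from cryopreserved quadriceps cells of 2 libraries with the 10x Genomics 3' kit. The authors deposited unnormalized counts of UMIs for each gene in all barcodes, aligned to mm10 with Cell Ranger (5.0.0 in the submitters' processing notes, while the matrix header names version 4). Barcodes were ranked by UMIs, and the 7367 (day 1) and 6640 (day 3) highest were called. Filters were a minimum of 1000 UMIs and 200 genes and a maximum of 7.5% mitochondrial UMIs. Cells were clustered with Seurat 5.3.0 and sctransform 0.4.2 in R 4.3.3 (3000 variable genes, 10 PCs, resolution 0.8), with the cell cycle difference and mitochondrial share regressed out and with the members and all naming markers left out of the variable genes, so that the groups were not formed by their levels.

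Clusters were named from marker lists by a rule set after the data were seen: at least 3 markers of the type raised 2-fold or more over the 25th percentile of the clusters at 20 CPM or more, and a lead of 0.25 over the next type. A name was refused where another type had more markers among the leading genes of the cluster, as in the *Hbb-bs*-led mixture. It was also refused in a cluster of low depth with no marker of the type among its leading genes. UMIs were summed per cluster group and day, and ratios had 0.5 added to each count. Doublets were kept: Scrublet (scanpy 1.11.5) marked 2 (0.0297%) and 0 cells by its automatic threshold, which is too few to have worked, and an alternative removed the 363 and 171 cells of highest score. Intervals and ratios were checked on simulated counts that held counting error only. That check cannot cover variation between cells, mice or libraries. Python 3.11.15, numpy 2.4.6, scipy 1.17.1, pandas 2.3.3 and matplotlib 3.10.9 were used.

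Named members were, in each complex, the 3 with the highest CPM summed over both days in monocyte/macrophage-like cells, those with the highest and lowest day ratio in monocyte/macrophage-like and fibroblast/FAP-like cells, the tissue isoforms with their partners, and members with 0 UMIs. The members and lists were chosen with earlier results of these data known. Reads of subunit genes can also match processed pseudogenes, which the counting may drop, so absolute levels are uncertain. Promoter windows came from RefSeq on GRCm38.p6, the assembly that mm10 stands for.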

Additional observations from a re-analysis of the deposited data

Results flagged for a closer look

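The genes in this paragraph had day 3 over day 1 ratios past 1.5-fold in opposite directions in different cell types, and the difference between the cell types was not tested, since each day is 1 library. *Ndufa12* had a log2 ratio of 0.67 in monocyte/macrophage-like and -1.24 in fibroblast/FAP-like cells. The others contrasted neutrophil-like with fibroblast/FAP-like cells. *Ndufa8*, a complex I subunit of the intermembrane space side, had log2 ratios of 1.19 and -0.59. *Ndufb4* and *Ndufb6*, of the membrane arm, had 1.41 and -0.62, and 0.99 and -0.73. *Ndufv2*, an iron-sulfur subunit of the NADH-binding module, had 1.02 and -0.66. All 5 are complex I genes. Neutrophil-like cells had 249 cells on day 3, and the macrophage markers in them summed to 290 CPM on day 1 and 1457 CPM on day 3, whose part in these ratios was not tested.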

How the results depend on the processing

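No paired analysis was possible because each day is 1 library, which also left no replicate to leave out, and the values below come from no test. The summed log2 ratio of the members, day 3 over day 1, was 0.27 for monocyte/macrophage-like and -0.08 for fibroblast/FAP-like cells, and that of neutrophil-like over monocyte/macrophage-like cells on day 1 was -1.34. Since the large UMI totals make the intervals narrow, small shifts counted as moved. Centred on the median of all genes, the values were -0.17 (opposite in sign), -0.34 and -0.57, because the typical gene itself stood off 0, and 3 members stayed higher in monocyte/macrophage-like cells in place of 20. The other moved values in monocyte/macrophage-like cells were 0.25 with cells called at 10% of the 99th percentile of UMIs (13 members higher), 0.26 without doublets, 0.24 with log-normalization, 0.29 with 20 PCs, 0.26 at resolution 0.4, 0.24 with cells typed singly by marker score, 0.30 without mitochondria-encoded genes in the total, 0.28 with ambient RNA subtracted and 0.28 for core subunits. Core subunits here were all members without the tissue isoforms and *Cox7a2l*, with *Cox4i1* and *Ndufab1* added, so accessory subunits were kept. A bound of 2-fold left 3 members higher. In fibroblast/FAP-like cells they were -0.10 at a mitochondrial limit of 15%, -0.11 without doublets, -0.10 by marker score, -0.11 as the mean of single cells, -0.053 without mitochondria-encoded genes, -0.19 without cytosolic ribosomal protein genes and -0.10 in thinned cells. Core subunits, and a minimum of 1000 UMIs per gene (chosen after seeing the data), each left 2 members higher in place of 4. For core subunits this follows from the definition, which leaves out *Cox7a1* and *Cox6b2*.

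For neutrophil-like over monocyte/macrophage-like cells the moved values were -1.36 at the 15% limit, -1.39 without doublets, -1.37 without mitochondria-encoded genes, -1.50 without ribosomal protein genes, -1.39 with ambient RNA subtracted and -1.05 in cells of 1000 to 5000 UMIs (chosen after seeing the data). It was -0.73 with log-normalization, -0.68 with 20 PCs, -0.86 by marker score and -0.063 with cells called at 10% of the 99th percentile, where 2 members were lower in place of 67. That call kept cells of at least 4624 UMIs, so that 116 of its 1333 neutrophil-named cells were in the neutrophil-like group of the report. Of the other 1217, 656 came from the *Serpinb2*-led, 324 from the *Gm9733*-led and 210 from the *Ifitm6*-led cluster. With 20 PCs, 238 cells outside that group, 210 of them from the *Ifitm6*-led cluster, gave 32.4% of the UMIs at 19712 CPM, and with log-normalization 171 of 230 such cells came from it. That cluster had nearly equal marker scores for neutrophils (1.96) and monocytes/macrophages (1.90). Over the cells shared with the group of the report the log2 ratio was -1.16 under that call, -1.35 with 20 PCs, -1.42 with log-normalization and -1.39 by marker score. Under the settings of this paragraph and the preceding one, the remaining values kept their sign.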
